A study of Mus musculus with 17 samples.

Results

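Expression of 8 genes that carry glucose into the cell and control its first phosphorylation steps was measured in sorted mouse β cells. The genes were the glucose transporters *Slc2a1* and *Slc2a2*, the hexokinases *Hk1* and *Hk2*, the glucose-6-phosphatase subunits *G6pc2* and *G6pc3*, and *Pfkfb2* and *Pfkfb3*, which encode enzymes that set the level of fructose-2,6-bisphosphate. They were taken by gene symbol from the 55357 genes in the deposited data, and all 8 passed the filter on low counts that left 22784 genes to test. Islets came from male C57BL/6 mice. Control mice, labelled WT, carried RIP-Cre (Cre recombinase under the rat insulin promoter) and a Tdtomato reporter, and the knockout mice (RIPCre+;Pcbp2 Fl/Fl;Tdtomato, hereafter *Pcbp2* βKO) also carried floxed alleles of *Pcbp2*, which encodes an RNA-binding protein. Cre and the reporter were therefore shared by every group, and the age of the mice was not given in the labels. Islets were cultured for 72 hours with glucose at either 2.8 or 16.7 mM, tdTomato-positive cells were sorted, and polyadenylated RNA was sequenced in 17 samples. The control group held 3 samples for the low concentration and 4 for the high, and the *Pcbp2* βKO group held 5 for each. Because the labels do not say whether samples of a group came from separate mice, p values here measure the spread between these samples, which may be technical.

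Glucose enters β cells by facilitated diffusion through transporters of the SLC2 (GLUT) family, and is then trapped by phosphorylation to glucose-6-phosphate. The high-affinity hexokinases that carry out this step in most tissues are known to be kept low in β cells. Glucose-6-phosphatase reverses the step in the endoplasmic reticulum, and PFKFB enzymes make and break fructose-2,6-bisphosphate, an activator of phosphofructokinase and so of glycolysis.

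Total estimated counts per sample were between 47385513 and 82419400. *Pcbp2*, the deleted gene, was measured at 50.7 to 73.4 CPM (estimated counts scaled to the TMM-adjusted library size) in control cells at 2.8 mM and 15.5 to 19.2 CPM in *Pcbp2* βKO cells at 2.8 mM. At 16.7 mM it was at 35.0 to 45.4 CPM in control cells and 5.81 to 10.03 CPM in *Pcbp2* βKO cells, and the genotypes did not overlap at either concentration. None of the 10 β cell markers listed was at 0 in all samples. On the first principal component, which held 30% of the variance, 3 libraries at 16.7 mM (control replicate 4 and *Pcbp2* βKO replicates 4 and 5) lay between the other 16.7 mM samples and the 2.8 mM samples. Without these 3 libraries, the numbers of the 8 genes called in each comparison below were 2, 6, 2 and 0, against 2, 5, 2 and 0 with them, the added gene being *Hk1* in the glucose response of *Pcbp2* βKO cells (log2 fold change of -1.46, adjusted p = 0.0323 by edgeR). More of all genes were called too. With glucose, 2271 were called higher and 2627 lower in control cells (1629 and 1524 with all libraries). In *Pcbp2* βKO cells they numbered 3181 and 3209 (3056 and 2375). Between genotypes they were 129 and 542 at 2.8 mM (58 and 406), and 237 and 350 at 16.7 mM (66 and 323).

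The sequences shown are those on which 2 of the measurements bear. *G6pc2* has an exon that is used by only some of its transcripts, and their shares were measured below. This exon, the 4th of 5 in the full-length coding transcript and absent from the shorter annotated one, lies on the plus strand at chr2:69056156-69056271 of GRCm39 and is 116 bases long, a length that leaves a remainder of 2 on division by 3. It is printed 5′ to 3′ with 40 intronic bases before and 20 after it (chr2:69056116-69056291), and the capitals mark the exon.
*G6pc2* exon 4: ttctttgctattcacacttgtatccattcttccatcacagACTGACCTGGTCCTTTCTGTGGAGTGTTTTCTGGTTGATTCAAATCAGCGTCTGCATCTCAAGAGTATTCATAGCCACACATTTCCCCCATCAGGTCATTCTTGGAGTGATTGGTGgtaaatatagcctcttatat

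The annotated coding sequence was 1065 bases in the full-length transcript and 462 bases in the transcript without exon 4. Promoter sequences of *G6pc2*, *Slc2a2*, *G6pc3* and *Pfkfb3* are shown because these 4 genes were called higher at 16.7 mM in *Pcbp2* βKO cells. They come from RefSeq on GRCm38.p6, cover the 250 bases before the annotated start, are printed 5′ to 3′ on the strand of the gene, and are at chr2:69210823-69211072 (plus strand), chr3:28697653-28697902 (plus), chr11:102189449-102189698 (plus) and chr2:11502091-11502340 (minus, the second of the *Pfkfb3* promoters in that table). Capitals mark CACGTG, the palindromic E-box, which reads the same on both strands and is bound by basic helix-loop-helix factors.
*G6pc2*: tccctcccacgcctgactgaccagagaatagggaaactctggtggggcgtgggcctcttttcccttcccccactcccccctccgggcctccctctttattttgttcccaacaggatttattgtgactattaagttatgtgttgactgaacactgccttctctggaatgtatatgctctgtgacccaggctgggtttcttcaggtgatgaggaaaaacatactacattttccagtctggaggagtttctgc
*Slc2a2*: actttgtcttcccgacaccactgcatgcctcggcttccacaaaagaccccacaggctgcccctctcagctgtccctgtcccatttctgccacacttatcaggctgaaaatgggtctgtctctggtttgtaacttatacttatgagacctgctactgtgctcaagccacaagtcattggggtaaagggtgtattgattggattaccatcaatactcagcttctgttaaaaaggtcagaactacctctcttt
*G6pc3*: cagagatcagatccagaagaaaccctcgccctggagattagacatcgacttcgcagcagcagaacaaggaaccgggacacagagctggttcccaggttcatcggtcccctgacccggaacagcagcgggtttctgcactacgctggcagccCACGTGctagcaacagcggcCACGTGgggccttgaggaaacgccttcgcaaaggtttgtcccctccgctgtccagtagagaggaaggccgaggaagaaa
*Pfkfb3*: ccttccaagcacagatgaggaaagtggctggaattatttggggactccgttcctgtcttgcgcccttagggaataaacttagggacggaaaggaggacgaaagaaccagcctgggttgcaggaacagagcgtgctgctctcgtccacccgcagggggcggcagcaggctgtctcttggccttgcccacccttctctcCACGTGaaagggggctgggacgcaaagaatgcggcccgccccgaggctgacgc

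All 8 genes were found in the promoter table, with 13 promoters. The motif was present in 3 of them, the *G6pc3* promoter with 2 matches and 1 promoter each of *Pfkfb2* and *Pfkfb3*, and in 6.02% of the 32851 promoters of the table. It was not found in the promoters of *G6pc2* or *Slc2a2*, which says only that these letters do not occur in the windows searched. Of the *Pfkfb3* promoters, the one printed is the one with the motif, and the first in the table had none. The second *G6pc2* promoter of the table is not printed.

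Levels were compared between genes in TPM, which are scaled to transcript length. Here and in the shares below, TPM were summed over all annotated transcripts of a gene, coding or not. In control cells at 2.8 mM, *G6pc2* was the most abundant of the 8 genes, with a mean of 372 TPM. *Slc2a2* followed with a mean of 66.2 TPM. *G6pc3* (28.2 ± 1.74 TPM, SD, n = 3) and *Slc2a1* (25.1 ± 7.34 TPM) overlapped, as did *Slc2a1* and *Pfkfb2* (18.1 ± 3.07 TPM). *Pfkfb3* had a mean of 1.48 TPM, and the hexokinases came last, at 0.402 TPM for *Hk1* and 0.116 TPM for *Hk2*. In control cells at 16.7 mM, *G6pc2* was again first with a mean of 910 TPM, and *Slc2a1* was below *Pfkfb2* in mean TPM (7.56 against 12.5 TPM), with the highest sample of *Slc2a1* at 8.48 TPM and the lowest of *Pfkfb2* at 8.49 TPM.

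**Figure D1:**
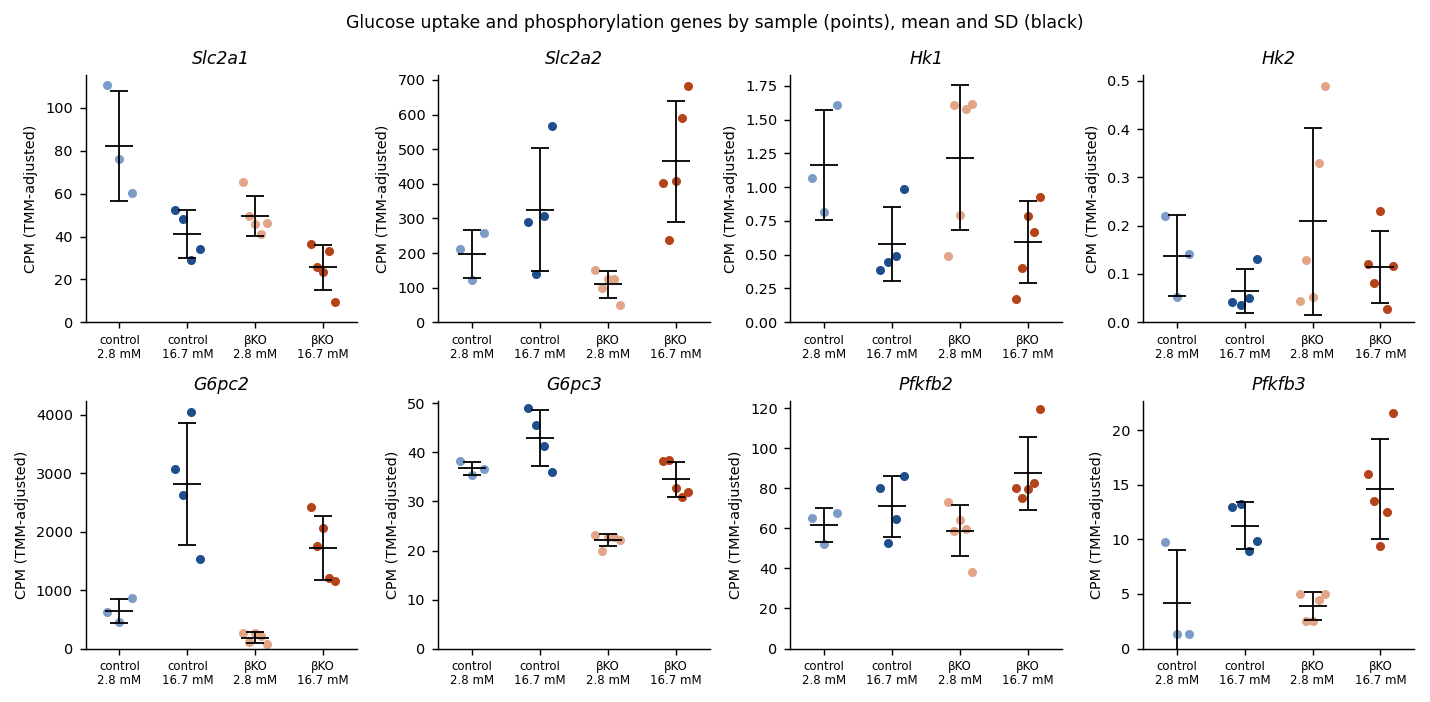
Expression of the 8 genes in CPM (vertical axes, linear from 0 and scaled separately in each panel) in each sample of the 4 groups (horizontal axis). Points are samples, horizontal lines the group means and bars the SD, and the lower bar of *Pfkfb3* in control cells at 2.8 mM is cut because it would reach below 0. *G6pc2* at 16.7 mM lies above every 2.8 mM sample in both genotypes, and *G6pc3* at 2.8 mM is lower in every *Pcbp2* βKO sample than in every control sample.

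The response to glucose in control cells was tested by comparing 16.7 mM with 2.8 mM. A gene was called where its Benjamini-Hochberg adjusted p over all 22784 genes in edgeR's quasi-likelihood test was below 0.05 and its fold change was above 1.5. Of the 8 genes, 1 was called higher and 1 lower in control cells, where 7.15% of all genes tested were called higher, 6.69% lower and 13.8% in either direction. In *Pcbp2* βKO cells, 4 of the 8 were called higher and 1 lower, against 13.4% and 10.4% of all genes and 23.8% in either direction. At 2.8 mM, 2 of the 8 were called lower in *Pcbp2* βKO than in control cells and none higher, where 1.78% of all genes were called lower and 2.04% in either direction. At 16.7 mM edgeR called 0 of the 8 between genotypes, where 1.71% of all genes were called and 1.42% were called lower. Of the 8, 2 had an unadjusted p under 0.05 there, as did 2763 of all 22784 genes, and DESeq2 and limma also called 0. For the interaction, which asks whether the glucose response differed between genotypes, edgeR called 0 of the 8 and 0.00439% of all genes (1 gene). There, too, 2 of the 8 had an unadjusted p under 0.05, as did 1042 of all 22784 genes, and DESeq2 and limma called 0 of the 8. The median log2 fold change of the 8 genes was 0.22 for the glucose response in control cells (0.04 over all genes), 0.61 for that in *Pcbp2* βKO cells (0.01), -0.41 for the knockout at 2.8 mM (0.03) and 0.17 for the knockout at 16.7 mM (0.01). The comparisons share samples and so are not independent of each other.

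**Figure D2:**
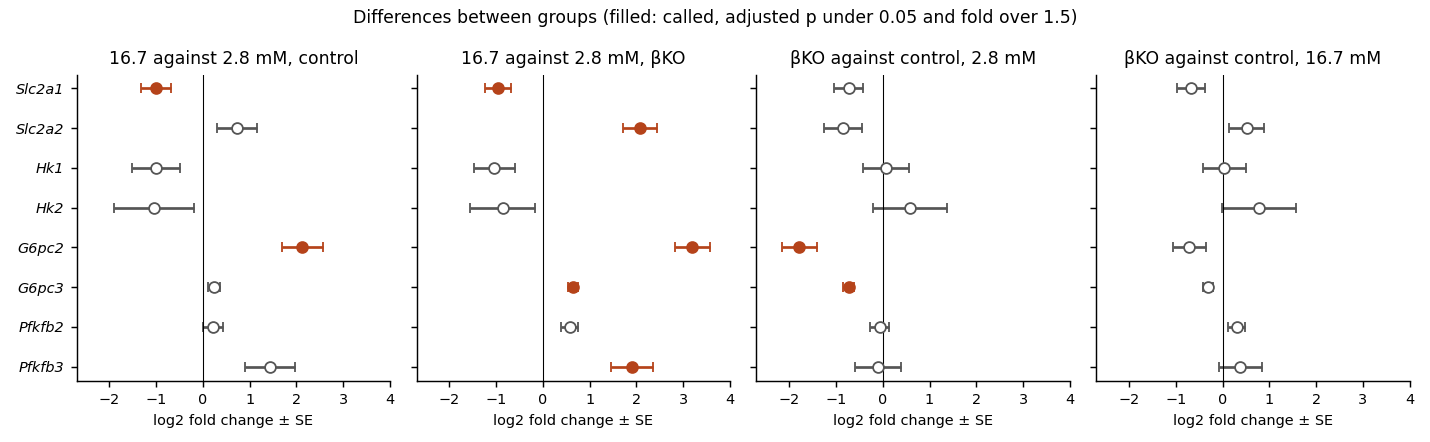
Log2 fold changes of the 8 genes (rows) in the comparisons of glucose and genotype, with bars of 1 SE from the fit across all 17 samples. *G6pc2* has the largest fitted rise with glucose of the 8 genes in both genotypes (2.13 in control cells and 3.20 in *Pcbp2* βKO cells), and *G6pc2* and *G6pc3* are the 2 genes called lower in *Pcbp2* βKO cells at 2.8 mM. The direction of *G6pc3* and *Pfkfb2* with glucose in both genotypes, and of *Slc2a2* with glucose in control cells, turns negative on the TPM scale.

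The transporters moved in opposite directions with glucose in *Pcbp2* βKO cells, while in control cells only *Slc2a1* passed the test. *Slc2a1* (GLUT1, on the plus strand of chromosome 4 at 118965908 to 118996365 of GRCm39) encodes the transporter of high affinity found in most tissues. Its levels in control cells were 111, 76.1 and 60.4 CPM at 2.8 mM and 52.6, 48.4, 29.1 and 34.1 CPM at 16.7 mM. Levels in *Pcbp2* βKO cells were 65.7, 49.4, 46.1, 41.2 and 46.2 CPM at 2.8 mM and 36.7, 25.6, 23.2, 33.3 and 9.40 CPM at 16.7 mM. In both genotypes every sample at 16.7 mM was below every sample at 2.8 mM. *Slc2a1* fell by 1.00 on the log2 scale in control cells (SE 0.33, edgeR adjusted p = 0.0457) and by 0.96 in *Pcbp2* βKO cells (SE 0.28, adjusted p = 0.0138). The call in control cells lay close to the threshold, and it was lost without any 1 of 10 of the 17 libraries. Over the 17 fits that each left out 1 library, edgeR adjusted p was from 0.0086 to 0.226 and log2 fold changes from -1.19 to -0.74. The 10 libraries included *Pcbp2* βKO replicates 2, 3 and 4 at 2.8 mM and 2 and 3 at 16.7 mM, which are not control samples. Without any 1 of these, adjusted p was from 0.053 to 0.056. The lowest fall and highest adjusted p came without control replicate 1 at 2.8 mM. In bulk samples, fewer cells of a type and less RNA per cell cannot be told apart. Between genotypes *Slc2a1* had log2 fold changes of -0.73 at 2.8 mM (SE 0.31, adjusted p = 0.319) and -0.68 at 16.7 mM (SE 0.29, adjusted p = 0.340), and the groups overlapped at both concentrations.

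*Slc2a2* (GLUT2, on the plus strand of chromosome 3 at 28752051 to 28785508) encodes the low-affinity, high-capacity transporter of rodent β cells and of hepatocytes. In control cells it was at 213, 122 and 257 CPM at 2.8 mM and at 288, 139, 306 and 567.9 CPM at 16.7 mM. The control groups overlapped, and the log2 fold change was 0.72 (SE 0.43, edgeR adjusted p = 0.286), a value that became -0.29 when TPM were tested with limma. *Slc2a2* in *Pcbp2* βKO cells was at 151, 97.5, 125, 124 and 49.9 CPM at 2.8 mM and at 403, 238, 407, 591 and 684 CPM at 16.7 mM. Here every sample at 16.7 mM was above every sample at 2.8 mM, and the rise was 4.25-fold (log2 fold change of 2.09, SE 0.36, edgeR adjusted p = 0.000342). On the TPM scale the log2 fold change of *Slc2a2* in *Pcbp2* βKO cells was 0.85 with a pseudocount of 1 and did not pass (limma adjusted p = 0.109). The difference between the glucose responses of the genotypes was 1.36 on the log2 scale (SE 0.55), and did not pass after adjustment (edgeR adjusted p = 1.00). Between genotypes, *Slc2a2* had log2 fold changes of -0.85 at 2.8 mM (edgeR adjusted p = 0.377) and 0.51 at 16.7 mM (adjusted p = 0.678). As a share of the summed TPM of both transporters, *Slc2a2* made up 71.6% ± 8.69 (SD, n = 3) in control cells at 2.8 mM and 85.5% ± 9.80 (n = 4) at 16.7 mM. The share in *Pcbp2* βKO cells was 70.0% ± 8.34 (n = 5) at 2.8 mM and 93.8% ± 3.54 (n = 5) at 16.7 mM.

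The hexokinases *Hk1* (minus strand of chromosome 10, 62104621 to 62215687) and *Hk2* (minus strand of chromosome 6, 82699740 to 82751469) encode high-affinity enzymes that are inhibited by their product, and both were at the edge of detection. *Hk1* had 10 to 162 estimated counts per sample and *Hk2* 2 to 49. *Hk1* was measured at 1.06, 0.812 and 1.61 CPM in control cells at 2.8 mM and at 0.389, 0.445, 0.487 and 0.983 CPM at 16.7 mM. The *Pcbp2* βKO cells had 0.491, 1.61, 0.795, 1.58 and 1.62 CPM at 2.8 mM and 0.171, 0.401, 0.785, 0.670 and 0.925 CPM at 16.7 mM. Means were lower at 16.7 mM but the groups overlapped in both genotypes, and neither response passed (log2 fold changes of -1.004 with SE 0.51 and edgeR adjusted p = 0.207 in control cells, and -1.03 with SE 0.43 and adjusted p = 0.0803 in *Pcbp2* βKO cells). The *Hk1* result in *Pcbp2* βKO cells depended on the method, since it passed in 7 of 12 alternatives, among them DESeq2 (adjusted p = 0.0448), length-scaled counts (adjusted p = 0.0313) and limma on log2(TPM + 0.1) (adjusted p = 0.000168). In control cells *Hk1* passed in 3 of 12, with limma on log2(TPM + 0.1) (adjusted p = 0.00747) and with both replicate blocks. On log2(TPM + 0.1) the median log2 fold change of all genes was itself -0.71 in *Pcbp2* βKO and -0.56 in control cells. *Hk2* was between 0.0268 and 0.489 CPM over all samples and no change was detectable at this depth. Between genotypes the log2 fold changes of *Hk1*, *Hk2*, *Pfkfb2* and *Pfkfb3* were between -0.10 and 0.58 at 2.8 mM (lowest edgeR adjusted p = 0.834) and between 0.03 and 0.77 at 16.7 mM (lowest adjusted p = 0.590).

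*G6pc2* (plus strand of chromosome 2, 69041417 to 69058185) encodes the islet glucose-6-phosphatase subunit, which opposes the phosphorylation of glucose. In control cells it was at 618, 455 and 860 CPM at 2.8 mM and at 3072, 2621, 4042 and 1526 CPM at 16.7 mM. Levels in *Pcbp2* βKO cells were 273, 115, 261, 214 and 73.6 CPM at 2.8 mM and 2425, 1756, 2067, 1201 and 1153 CPM at 16.7 mM. The concentrations did not overlap in either genotype. *G6pc2* rose 4.37-fold with glucose in control cells (log2 fold change of 2.13, SE 0.43, edgeR adjusted p = 0.00392) and 9.18-fold in *Pcbp2* βKO cells (3.20, SE 0.36, adjusted p = 1.10e-05). These calls held without any single library and on the TPM scale, where the rises were smaller. Mean TPM went from 372 to 910 in control cells and from 122 to 520 in *Pcbp2* βKO cells.

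At 2.8 mM every *Pcbp2* βKO sample had less *G6pc2* than every control sample. The level was 0.291 of that in control cells (log2 fold change of -1.78, SE 0.38, edgeR adjusted p = 0.0143). Without control replicate 3 at 2.8 mM, the highest control sample, the log2 fold change was -1.52 and did not pass (adjusted p = 0.113). At 16.7 mM the genotypes overlapped, with a log2 fold change of -0.71 (SE 0.35, adjusted p = 0.439). The glucose responses of *G6pc2* differed by 1.07 on the log2 scale between genotypes (SE 0.52, edgeR adjusted p = 1.00).

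*G6pc3* (plus strand of chromosome 11, 102080410 to 102088876) encodes the ubiquitous subunit. In control cells it was at 38.2, 35.4 and 36.6 CPM at 2.8 mM and at 49.1, 45.6, 41.3 and 36.0 CPM at 16.7 mM. Levels in *Pcbp2* βKO cells were 23.1, 19.9, 22.7, 22.7 and 22.1 CPM at 2.8 mM and 38.3, 38.5, 32.7, 30.9 and 32.0 CPM at 16.7 mM. At 2.8 mM the *Pcbp2* βKO samples were all below the control samples, and within each group the values were close together. *G6pc3* was at 0.602 of its control level there (log2 fold change of -0.73, SE 0.12, edgeR adjusted p = 0.00163). The log2 fold change was between -0.76 and -0.70 in the fits that each left out 1 library, with the call kept in all 17. On the TPM scale it was -0.53 with a pseudocount of 1, short of the fold threshold (limma adjusted p = 0.0312). At 16.7 mM the genotypes overlapped (log2 fold change of -0.32, SE 0.11, adjusted p = 0.214). *G6pc3* in *Pcbp2* βKO cells rose 1.56-fold with glucose relative to the typical gene (log2 fold change of 0.64, SE 0.11, adjusted p = 0.000218), but the log2 fold change was 0.15 with library size alone as the scale (edgeR adjusted p = 0.233) and -0.41 on the TPM scale (limma adjusted p = 0.00280), so its direction depends on the scale. In control cells the log2 fold change of 0.23 (SE 0.13, edgeR adjusted p = 0.255) turned to -0.18 and -0.58 on those scales. The responses of the genotypes differed by 0.41 (SE 0.17, edgeR adjusted p = 1.00).

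Summed markers of other islet cell types also differed between the genotypes at 2.8 mM. The α cell list summed to 638 to 2566 CPM in control cells and 1473 to 9196 CPM in *Pcbp2* βKO cells, the δ cell list to 251 to 390 and 480 to 1316 CPM, and *Ppy* to 797 to 835 and 992 to 5112 CPM. None of the tested genes of these 3 lists was called on its own at 2.8 mM in edgeR, although 5 of 8 had an unadjusted p under 0.05. Of all 22784 genes, 2.04% were called there and 2936 had an unadjusted p under 0.05. The macrophage list summed to 79.5 to 108 CPM in control and 27.4 to 55.6 CPM in *Pcbp2* βKO cells, where *C1qa* was called lower (log2 fold change of -2.25, edgeR adjusted p = 0.00302) while the median of the 6 genes was 0.75. The β cell list summed to 118285 to 122522 CPM in control and 67134 to 97387 CPM in *Pcbp2* βKO cells, where *Ins1* was called lower (-3.04), the other 9 genes were not called and the median was -0.12.

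Markers moved with glucose too. In *Pcbp2* βKO cells at 16.7 mM the α cell list summed to 174 to 1322 CPM, the δ cell list to 198 to 565.5 CPM, *Ppy* to 290 to 1142 CPM and the β cell list to 357470 to 472750 CPM, against the sums at 2.8 mM given above. Of the β cell list, 8 of 10 genes were called higher with glucose there, and 7 of 10 in control cells. Of all genes, 13.4% were called higher and 10.4% lower in *Pcbp2* βKO cells, and 7.15% and 6.69% in control cells. The macrophage list had 5 of 6 genes called lower and 1 higher in *Pcbp2* βKO cells, and 1 of 6 lower in control cells. The proliferation list had 6 of 6 called higher in *Pcbp2* βKO cells (2.18 to 271 CPM at 16.7 mM against 4.07 to 12.8 CPM at 2.8 mM). It had 0 of 6 called in control cells by edgeR, where all 6 had an unadjusted p under 0.05. Their part in the genotype and glucose differences of the 8 genes was not tested.

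*G6pc2* dominated the phosphatase pair in every group. It made up 92.5% ± 2.13 (SD, n = 3) of their summed TPM in control cells at 2.8 mM and 97.8% ± 0.711 (n = 4) at 16.7 mM. The share in *Pcbp2* βKO cells was 89.6, 80.9, 89.2, 87.1 and 71.0% at 2.8 mM and 97.9, 97.1, 97.9, 96.6 and 96.4% at 16.7 mM. Every *Pcbp2* βKO sample at 2.8 mM was below every other sample of the series in this share. The mean share in *Pcbp2* βKO cells minus that in control cells at 2.8 mM was -8.89 percentage points, which did not pass (exact two-sided permutation test, p = 0.0893, adjusted p = 0.179, where the smallest p this design allows is 0.0179).

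*Pfkfb2* (minus strand of chromosome 1, 130616779 to 130656990) encodes a form of the bifunctional enzyme that is expressed in islets and heart. It was at 73.3, 58.6, 64.1, 59.9 and 38.4 CPM in *Pcbp2* βKO cells at 2.8 mM and at 79.9, 75.0, 79.8, 82.5 and 120 CPM at 16.7 mM. The concentrations did not overlap, and the fold change of 1.48 (log2 fold change of 0.57, SE 0.18, edgeR adjusted p = 0.0200) was just below the threshold of 1.5. In control cells the log2 fold change was 0.21 (SE 0.21, adjusted p = 0.579) and the groups overlapped. On the TPM scale these log2 fold changes of *Pfkfb2* were -0.48 and -0.54, with a pseudocount of 1, so the direction depends on the scale here as well.

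*Pfkfb3* (minus strand of chromosome 2, 11476244 to 11558888) encodes the inducible form with high kinase activity. In control cells it was at 9.78, 1.37 and 1.35 CPM at 2.8 mM and at 12.96, 13.2, 8.94 and 9.87 CPM at 16.7 mM. Levels in *Pcbp2* βKO cells were 4.99, 2.57, 2.55, 4.42 and 4.96 CPM at 2.8 mM and 16.01, 13.5, 9.38, 12.5 and 21.6 CPM at 16.7 mM. In *Pcbp2* βKO cells the concentrations did not overlap and *Pfkfb3* rose 3.74-fold (log2 fold change of 1.90, SE 0.44, edgeR adjusted p = 0.00310). On the TPM scale with a pseudocount of 1 this was 0.54, and did not pass (limma adjusted p = 0.0706). In control cells 1 sample at 2.8 mM, replicate 1, lay among the 16.7 mM samples and the log2 fold change of 1.43 did not pass (SE 0.54, adjusted p = 0.0780).

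The control response and the comparison of genotypes at 2.8 mM both turned on that *Pfkfb3* value. Without control replicate 1 at 2.8 mM, the log2 fold change with glucose in control cells was 3.05 (edgeR adjusted p = 0.00124), and that of *Pcbp2* βKO against control cells at 2.8 mM was 1.52 (adjusted p = 0.0408) in place of -0.10 (adjusted p = 0.969). DESeq2 called *Pfkfb3* higher with glucose in control cells with all libraries (log2 fold change of 1.43, adjusted p = 0.0258). With the replicate number as a block, used beside this result because same-numbered control samples deviated together, 4 of the 8 genes were called in control cells in place of 2. The blocked fit added *Pfkfb3* (log2 fold change of 1.87, edgeR adjusted p = 0.00445) and *Hk1* (-1.32, adjusted p = 0.0297). It also called more of all genes, 2331 higher and 2444 lower in place of 1629 and 1524.

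**Figure D3:**
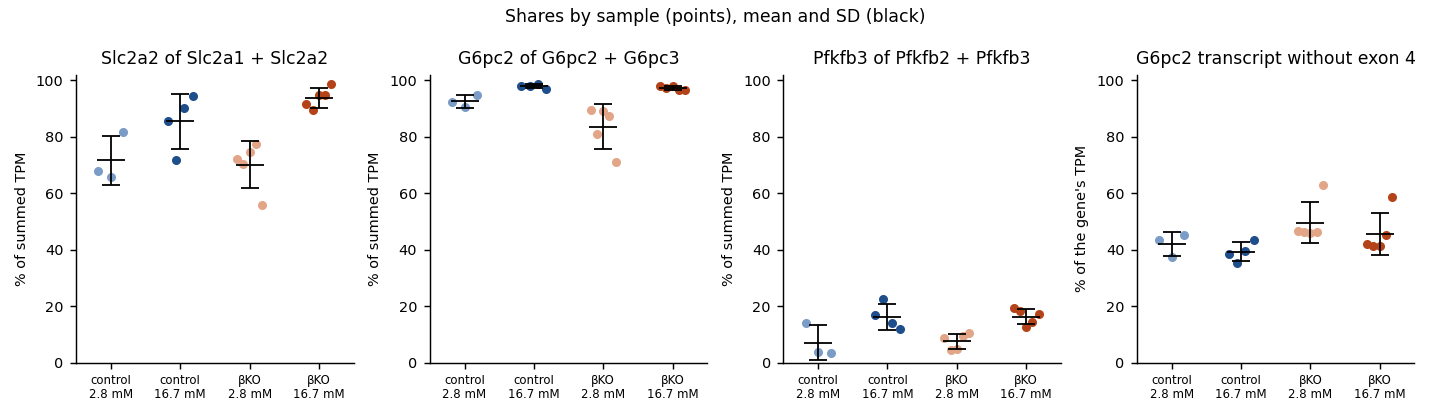
Shares of summed TPM in percent (vertical axes) by group (horizontal axis) for *Slc2a2* of both transporters, *G6pc2* of both phosphatase subunits, *Pfkfb3* of both PFKFB genes and the transcript without exon 4 of *G6pc2*. Points are samples and lines are means with bars of 1 SD. The first 3 shares are higher in every *Pcbp2* βKO sample at 16.7 mM than in every *Pcbp2* βKO sample at 2.8 mM, and the transcript without exon 4 is higher in all *Pcbp2* βKO samples at 2.8 mM than in the control samples at 2.8 mM.

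Within each pair of related genes, the balance was tested with exact two-sided permutation tests over samples, 16 in all. In *Pcbp2* βKO cells at 16.7 mM against 2.8 mM, *Slc2a2* gained 23.8 percentage points of the transporter pair, *G6pc2* 13.7 points of the phosphatase pair and *Pfkfb3* 8.77 points of the PFKFB pair. Each had p = 0.00794, the smallest this design allows, and adjusted p = 0.0423 over the 16 permutation tests. *Hk2* gained 31.6 points of the hexokinase pair, a share that rests on 2 to 49 *Hk2* counts per sample, and did not pass (exact permutation p = 0.0159, adjusted p = 0.0635). In control cells the gains were 13.8 points for *Slc2a2* (permutation adjusted p = 0.203), 5.38 points for *G6pc2* (adjusted p = 0.0914) and 9.22 points for *Pfkfb3* (adjusted p = 0.229), and 0 of the 4 pairs passed in control cells. The passes in *Pcbp2* βKO cells were lost, 0 of 16 in place of 3, when shares were taken from estimated counts, without *Pcbp2* βKO replicate 2 or 3 at 2.8 mM or replicate 1 or 3 at 16.7 mM, and without the 3 libraries that stood apart. Without those 3, 5 samples stand against 3 and the smallest p allowed is 0.0179. The gains stayed similar in size over all these alternatives, from 20.2 to 26.8 points for *Slc2a2*, 10.5 to 15.2 for *G6pc2* and 7.64 to 9.67 for *Pfkfb3*. The difference between genotypes in these gains was not tested.

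The share of each annotated transcript within its gene was measured for the 24 transcripts with at least 10% of the gene's TPM in some group. Of the 96 exact permutation tests of these shares, 0 passed after adjustment. The *G6pc2* transcript that lacks the exon printed above made up 43.3, 37.4 and 45.3% of *G6pc2* in control cells at 2.8 mM and 46.4, 46.4, 45.9, 46.2 and 62.7% in *Pcbp2* βKO cells at 2.8 mM. All *Pcbp2* βKO samples were above all control samples at this concentration, by 7.54 points on average (exact permutation p = 0.161, adjusted p = 0.686). At 16.7 mM the share was 38.3, 35.4, 39.6 and 43.5% in control cells and 41.9, 41.3, 41.3, 45.2 and 58.6% in *Pcbp2* βKO cells. These groups overlapped and differed by 6.44 points (exact permutation p = 0.103, adjusted p = 0.686). Replicate 5 was the highest *Pcbp2* βKO sample at both concentrations, and without it the differences were 4.25 points at 2.8 mM and 3.21 points at 16.7 mM. The share of a coding transcript of *Slc2a2* within its gene was 30.0% ± 1.41 at 2.8 mM and 39.01% ± 3.29 at 16.7 mM in *Pcbp2* βKO cells (n = 5 each, exact permutation p = 0.00794, adjusted p = 0.508). The other *Slc2a2* transcripts measured were annotated as nonsense-mediated decay (40.2 and 34.8% there) and retained intron (29.8 and 26.2%). For *Hk2*, a transcript annotated as processed and not as coding had mean shares of 56.4 to 91.9% over the groups. These shares are Kallisto's division of reads among transcripts that overlap for most of their length.

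A list of 35 other genes of glucose uptake, phosphorylation and fructose phosphate turnover gave the setting, and 32 of them were tested. In control cells 6 were called higher and 1 lower at 16.7 mM, and in *Pcbp2* βKO cells 11 were called higher and 2 lower, beside 7.15% and 6.69% of all genes in control and 13.4% and 10.4% in *Pcbp2* βKO cells. The median log2 fold change of the tested genes was 0.52 in control and 0.43 in *Pcbp2* βKO cells (0.04 and 0.01 over all genes). DESeq2 and limma on log2(TPM + 0.1) each called 11 of the list in control cells in place of 7. Both also called more of all 22784 genes there. DESeq2 called 2117 higher and 1804 lower, and limma 442 higher and 8460 lower, in place of 1629 and 1524. The largest rise in both genotypes among genes detected in every group was that of *Slc5a10*, which encodes a sodium-dependent sugar transporter and went from a mean of 0.342 to 28.7 CPM in control cells (log2 fold change of 6.37, edgeR adjusted p = 0.000114) and from 0.222 to 21.0 CPM in *Pcbp2* βKO cells. *Txnip*, whose product promotes internalization of GLUT1, rose from a mean of 23.3 to 640 CPM in control cells (4.78, adjusted p = 3.88e-06) and from 38.5 to 717 CPM in *Pcbp2* βKO cells (4.22). The related *Arrdc4* rose too, by a log2 fold change of 1.46 in control cells and 1.23 in *Pcbp2* βKO cells, the second of which was -0.20 on the TPM scale.

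*Slc2a6*, which encodes a lysosomal member of the transporter family, rose from a mean of 1.89 to 15.1 CPM in control cells (log2 fold change of 2.99, edgeR adjusted p = 0.00501) and from 0.742 to 12.3 CPM in *Pcbp2* βKO cells (4.06). *Slc37a4*, which encodes the glucose-6-phosphate transporter that feeds the phosphatase, was called higher in *Pcbp2* βKO cells (log2 fold change of 1.09, edgeR adjusted p = 7.06e-05) but was at -0.04 on the TPM scale. *Slc2a4* (GLUT4) was at 0 counts in all *Pcbp2* βKO samples at 2.8 mM and no fold is given. *Slc2a3* (GLUT3) and *Hk3* were the 2 genes called lower in *Pcbp2* βKO cells, with log2 fold changes of -1.97 (edgeR adjusted p = 0.0404) and -3.07 (adjusted p = 0.00426). *Slc2a3* lost its call in 6 of 17 fits without 1 library and in 3 of 12 other alternatives. *Hk3* had 1 to 6 counts per sample at 16.7 mM in *Pcbp2* βKO cells and lost its call with length-scaled counts (adjusted p = 0.131).

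**Figure D4:**
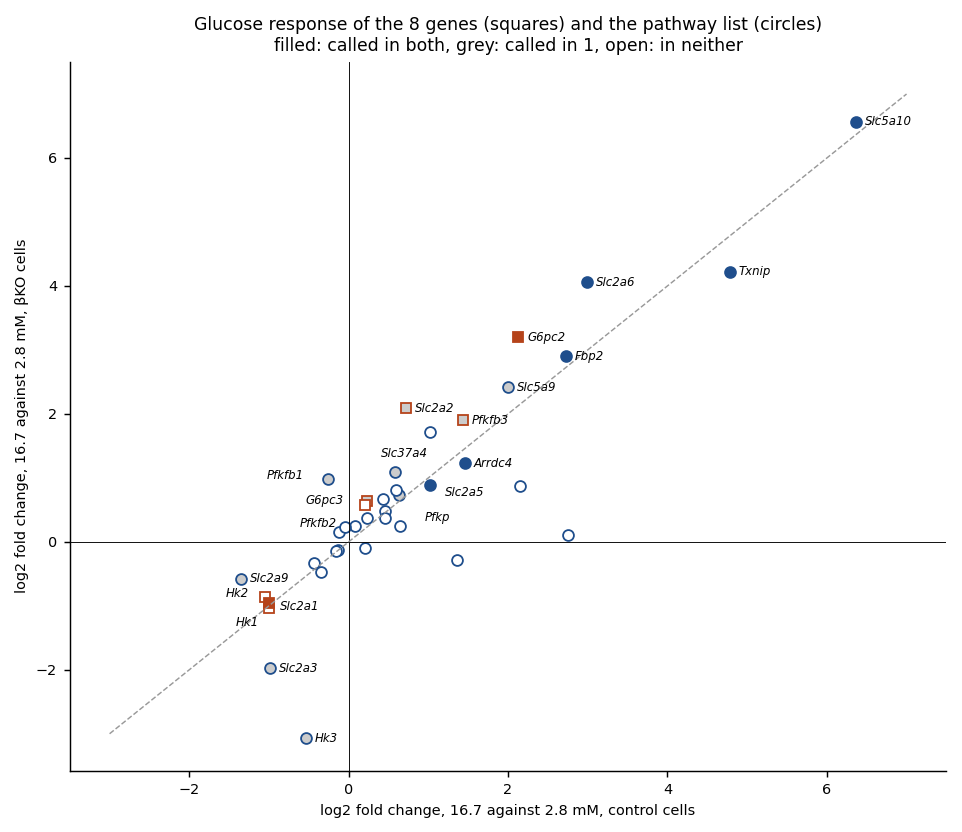
Log2 fold change with glucose (16.7 against 2.8 mM) in control cells (horizontal axis) and *Pcbp2* βKO cells (vertical axis) for the 8 genes (squares) and the pathway list (circles), with the line of equality dashed. Filled symbols were called in both genotypes, grey in 1 and open in neither. *Slc2a4*, with 0 counts in 1 group, is left out. *G6pc2* and *Slc2a1* are the 2 of the 8 genes called in both, and *Slc2a5*, *Slc37a4*, *Pfkp*, *Pfkfb1* and *Arrdc4* in *Pcbp2* βKO cells, *Slc2a2* in control cells, and *G6pc3* and *Pfkfb2* in both, fall below 0 on the TPM scale.

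Between genotypes, 1 of the 32 tested genes of the list was called at 2.8 mM and 2 at 16.7 mM. Of all genes, 2.04% and 1.71% were called there. *Slc2a13*, which encodes a proton-coupled inositol transporter, was lower in *Pcbp2* βKO cells, with means of 3.78 and 0.915 CPM at 2.8 mM (log2 fold change of -2.04, edgeR adjusted p = 0.0192) and 5.08 and 1.45 CPM at 16.7 mM (-1.80, adjusted p = 0.0337). The *Slc2a13* call was lost in 2 of 12 alternatives and 3 of 17 fits without 1 library at 2.8 mM. At 16.7 mM it was lost in 5 of 12 and 7 of 17. *Adpgk*, which encodes a kinase that phosphorylates glucose with ADP, was called lower at 16.7 mM (means of 44.0 and 25.9 CPM, log2 fold change of -0.77, adjusted p = 0.0162). Its call was lost in 1 of 12 alternatives and 1 of 17 fits without 1 library. No other gene of the list was called by edgeR between genotypes. At 2.8 mM the count of 1 became 2 with DESeq2, without the filter, with length-scaled counts or with the replicate block over all samples, 4 with the block over the 2 groups alone or without the 3 libraries apart, 3 with the 2 groups alone, and 0 with limma. At 16.7 mM the count of 2 was 1 to 3 over the 12 alternatives and 0 to 3 with 1 library left out. The number of all genes called moved as well. Over the 12 alternatives it was 283 to 1039 at 2.8 mM in place of 464, and 190 to 726 at 16.7 mM in place of 389.

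The genes most like each of the 8 across all 17 samples were found by Pearson's r of log2 CPM over 10013 or 10014 genes, given as a description because samples share group and depth. *G6pc2* was followed most closely by *Vamp2*, a vesicle SNARE, and *Pcsk1*, a prohormone convertase (r = 0.985 for each). *Slc2a2* was most like *Col4a1* (0.949), *Slc2a1* most like *Grn* (0.911), *G6pc3* most like *Pla2g6* (0.960), *Pfkfb2* most like *Hadh* (0.947) and *Pfkfb3* most like *Egr1* (0.898) and *Dusp1* (0.894), both immediate early genes. *Hk1* and *Hk2* were matched less closely (0.879 with *D030056L22Rik* and 0.782 with *Polr2b*), at levels where few counts were read.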

How the data were processed

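RNA was sequenced in 17 samples of 4 groups, whose group and replicate number came from the labels. The authors pseudoaligned reads with Kallisto (genome build mm39 per the labels) and deposited estimated counts and TPM for 142376 transcripts per sample. The deposited estimated counts were not normalized between samples, and the deposited TPM were scaled by the authors' Kallisto run to effective transcript length and a fixed total. Per gene, the sum of its transcripts' estimated counts was rounded to a whole number and given as CPM with TMM factors (prior count of 2 for log2 CPM). All 17 samples entered 1 quasi-likelihood fit in edgeR 4.0.16 (R 4.3.3) with 4 group means, 5 contrasts and Benjamini-Hochberg adjustment over 22784 genes. The batch factor of the authors' model is not in the labels and was not used. DESeq2 1.42.0, limma 3.58.1 on log2(TPM + 1) and log2(TPM + 0.1), other scalings, no filter, length-scaled counts, replicate blocks and each library left out were alternatives. The methods were tested on simulated data.

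Shares of TPM within gene pairs and of transcripts within genes were compared with exact permutation tests, whose smallest p is 0.0286 for glucose in control cells, 0.00794 for glucose in *Pcbp2* βKO cells, 0.0179 between genotypes at 2.8 mM and 0.00794 at 16.7 mM. Each pair (such as *Slc2a1* with *Slc2a2*) was fixed by family. The genes, the pathway list, the marker lists and the tests were chosen with earlier results of these data known. An item of the pathway is not reported here. The named genes were drawn from the 8, the called genes of the pathway list and the 2 genes with the highest correlation to each of the 8 among genes with a mean above 5 CPM. For some of the 8 only the closer of these 2 genes was named. Called with glucose but not described above were *Slc2a9* (log2 fold change of -1.36 in control cells), *Fbp2* (2.72 in control and 2.90 in *Pcbp2* βKO cells) and *Slc5a9* (2.42 in *Pcbp2* βKO cells). Other named genes, including those described for their level, were chosen after their values were seen. The numbers of samples were held to pair groups where all same-numbered samples deviated together by a correlation above 0.1. In control cells the correlations between concentrations were 0.198, 0.123 and 0.258, so blocked values are given beside that result, and in the other comparisons at least 1 was below 0.1. No 2 samples were identical. Positions are from GENCODE on GRCm39, and promoters from RefSeq on GRCm38.p6.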

Additional observations from a re-analysis of the deposited data

Results flagged for a closer look

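The values in 42 groups of 4 or 5 samples were scanned for a single sample far from the rest by Dixon's test, and 5 were found, where chance gives about 1 in 20 groups. Scanned were the CPM of the 8 genes and the pair shares other than that of the hexokinases. Transcript shares were scanned only for the *G6pc2* transcript without exon 4, the coding *Slc2a2* transcript and a nonsense-mediated decay transcript of *Slc2a1*. Control cells at 2.8 mM, with 3 samples, were not scanned. *Hk1* was at 0.983 CPM in control replicate 4 at 16.7 mM, against 0.389 to 0.487 CPM in the other control samples at 16.7 mM. *Hk2* was at 0.132 CPM in the same sample, against 0.0356 to 0.0504 CPM. This library is 1 of the 3 that stood apart on the first principal component.

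*Pfkfb2* was at 119.5 CPM in *Pcbp2* βKO replicate 5 at 16.7 mM, against 75.0 to 82.5 CPM in the other 4 samples, and this library also stood apart. The transcript without exon 4 made up 62.7% of *G6pc2* in *Pcbp2* βKO replicate 5 at 2.8 mM, against 45.9 to 46.4%, and 58.6% in replicate 5 at 16.7 mM, against 41.3 to 45.2%. The labels do not say whether samples with the number 5 share an animal or a preparation.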

How the results depend on the processing

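The number of the 8 genes called for glucose in control cells (2) was 1 with length-scaled counts, 4 with limma on log2(TPM + 0.1), 4 with either replicate block, and 1 to 2 with 1 library left out. For glucose in *Pcbp2* βKO cells (5) it was 2 with limma on log2(TPM + 1), 3 on log2(TPM + 0.1), and 5 to 7 with 1 library left out. For the genotypes at 2.8 mM (2) it was 1 with limma at both pseudocounts and 1 to 3 with 1 library left out, and for the genotypes at 16.7 mM and the interaction it stayed at 0. The 3 pair shares that passed became 0 with shares of estimated counts and 0 without the 3 libraries apart, and 0 to 4 with 1 library left out. No transcript share passed under any alternative.

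Scale moved the glucose comparisons most. The median log2 fold change of all genes was -0.35 in control and -0.47 in *Pcbp2* βKO cells with total counts alone, -0.24 and -0.33 on log2(TPM + 1), and -0.56 and -0.71 on log2(TPM + 0.1). Genes called higher and lower in control cells numbered 1629 and 1524, against 782 and 4055 with total counts, 250 and 6725 on log2(TPM + 1) and 442 and 8460 on log2(TPM + 0.1), and in *Pcbp2* βKO cells 3056 and 2375, against 1482 and 6369, 345 and 8486, and 656 and 11793. For the genotypes DESeq2 called 210 higher and 625 lower at 2.8 mM (edgeR 58 and 406), 221 and 505 at 16.7 mM (66 and 323), and 27 and 7 in the interaction (1 and 0).

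With total counts, signs turned for glucose in control cells in *G6pc3* (log2 fold change of -0.18) and *Pfkfb2* (-0.17), and for the genotypes at 2.8 mM in *Pfkfb3* (0.038). With log2(TPM + 1) and log2(TPM + 0.1) in turn, they turned in control cells for *Slc2a2* (-0.29 and -0.29), *G6pc3* (-0.58 and -0.60) and *Pfkfb2* (-0.54 and -0.57). In *Pcbp2* βKO cells they turned for *G6pc3* (-0.41 and -0.43), *Pfkfb2* (-0.48 and -0.50), *Slc2a5* (-0.026 and -0.026), *Slc37a4* (-0.039 and -0.039), *Pfkp* (-0.37 and -0.39), *Pfkfb1* (-0.11 and -0.19) and *Arrdc4* (-0.20 and -0.21). *Pfkfb3* between genotypes at 2.8 mM was 0.20 and 0.44 on these scales, 0.13 and 0.29 with the replicate block over all samples and over the groups compared, and -0.52 to 1.52 with 1 library left out.

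Outside the glucose comparison of control cells, at least 1 same-numbered correlation in each comparison was below 0.1, though all were positive. Whether the numbers pair those samples is not known. In those comparisons the block added *Hk1* for glucose in *Pcbp2* βKO cells (-1.10, edgeR adjusted p = 0.0198). Over the 2 groups alone it also added *Slc2a2* at 2.8 mM (-0.61, adjusted p = 0.0355). *Pfkfb2* in *Pcbp2* βKO cells passed the fold threshold in 6 of the 17 fits without 1 library, and *Slc2a13* at 16.7 mM lost its call in 7. The causes were not tested.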
